A study of Mus musculus with 4 samples.

Results

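The genes described here are Ltf, Camp, Ngp, Lcn2, Mmp8, Mmp9, Chil3, S100a8, S100a9 and Retnlg, which encode the later granule proteins and the calprotectin subunits of neutrophils. They were taken by name, not by their values, and make up 10 of the 32285 genes in each matrix. Their raw transcript counts (unique molecular identifiers, UMIs) were read in 4 single-cell libraries, in neutrophils, in MA9 leukemia cells and in every other cell class that could be named from markers. None of the 10 genes was used as a marker.

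MA9 is a mouse acute myeloid leukemia driven by the MLL-AF9 fusion. Wild-type C57BL/6J recipients, given in the labels as 6 to 8 weeks old, carried MA9 cells with a doxycycline-inducible construct that was either a control (Ctrl) or a hairpin against the arginine methyltransferase Prmt9 (shPrmt9). All 4 groups received doxycycline in drinking water for 7 days, and the hairpin was in the transplanted leukemia cells and not in the host. Bone marrow and spleen gave 1 library each in each arm (BM-Ctrl and BM-shPrmt9 from marrow, Spleen-Ctrl and Spleen-shPrmt9 from spleen). The methods describe a representative mouse per group as the source of both tissues, which the sex-linked transcripts given below go against. With 1 library per group no replicate spread exists, no test between groups was possible, and every difference below is between libraries. All intervals are 95% intervals that cover counting error only. In the shPrmt9 library of each tissue, the comparison asks how neutrophil and leukemia transcripts stood after the knockdown.

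Neutrophils build their granules in order. Primary granules come first, in promyelocytes. Specific granules follow in myelocytes and hold lactoferrin (Ltf), the cathelicidin Camp, neutrophilic granule protein (Ngp), the siderophore-binding lipocalin-2 (Lcn2), the collagenase Mmp8 and the chitinase-like protein Chil3. Gelatinase granules come later and carry the gelatinase Mmp9. S100a8 and S100a9 pair in the cytosol as calprotectin, which binds calcium and takes up zinc and manganese, and Retnlg is a secreted resistin-like protein of neutrophils.

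The matrices held 8648 to 11315 barcodes and 84009744 to 188030429 UMIs per library, and 7545 to 10175 cells per library were used, with median depths of 6268 to 10377 UMIs. Any pair of libraries shared 12 to 29 barcodes, at most 0.358% of the smaller library. Prmt9 stood at 10.5 counts per 1000000 UMIs (CPM) over all cells of BM-Ctrl and 6.91 CPM in BM-shPrmt9. The spleens held 13.02 CPM (Ctrl) and 7.09 CPM (shPrmt9). These sums mix host and leukemia cells, and MA9-like cells (defined below) were only 0.470% and 2.41% of the spleen cells. They do not measure the knockdown within leukemia cells. The libraries did not match in sex-linked transcripts. The 4 Y-linked genes summed to 210 CPM in the Ctrl spleen and 149 CPM in the shPrmt9 spleen, but both marrows held almost none of their UMIs (1 and 2). These values go against a single mouse as the source of both tissues of an arm, and which animals gave which library is not given in the sources used here. Xist, transcribed from the inactive X of female cells, was at 336 CPM in T-like cells of BM-Ctrl but at 0.103 CPM in its neutrophil-like cells and 0.111 CPM in its MA9-like cells. Its B-like cells held 41.9 CPM, its monocyte-like cells 1.90 CPM and its erythroid-like cells 0. A UMI of Xist was in 1.53% of all BM-Ctrl cells and 42.5% of all BM-shPrmt9 cells. In BM-shPrmt9 it was at 571 CPM in T-like cells, 119 CPM in neutrophil-like cells and 38.5 CPM in MA9-like cells. The neutrophil-like cells of BM-Ctrl carried neither sex-linked signal, and those of BM-shPrmt9 carried Xist. This difference moved with the arm, and its part in the marrow differences below was not tested.

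A cell was named from its own UMIs when it held at least 3 markers and 30% of a panel. Neutrophil-like cells also held a UMI of Csf3r, Cxcr2 or Ly6g and no UMI of the 6 Hoxa, Meis1 and Pbx3 markers that defined MA9-like cells. They numbered 3772 in BM-Ctrl (42.4% of cells), 5056 in BM-shPrmt9 (49.7%), 65 in Spleen-Ctrl (0.783%) and 191 in Spleen-shPrmt9 (2.53%). All 11 granule-forming and all 9 late markers were detected in the neutrophil-like cells of both marrows. In Spleen-Ctrl late cells, Fcnb, Cd177, Itgb2l, Abca13 and Orm1 were at 0. Neutrophil-like cells were split by the share of granule-forming markers (such as Cebpe, Ly6g and Cd177) in the UMIs of both neutrophil panels, into granule-forming cells with a share of at least 50%, late cells with at most 20%, and intermediate cells between them. The number of cells lying within 0.05 of a limit was 861 and 1202 in the Ctrl and shPrmt9 marrows and 6 and 48 in the spleens.

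The genes lie on 4 chromosomes (build mm10, GENCODE genes). Camp (9:109847379-109849617), Ngp (9:110419747-110423012) and Ltf (9:111019271-111042767) lie on chromosome 9 with gaps of 570129 and 596258 bases between them, and Mmp8 (9:7558456-7568485) lies far off on the same chromosome. S100a8 (3:90668978-90670035) and S100a9 (3:90692632-90695721) are neighbors, 22596 bases apart and on opposite strands, and Chil3 (3:106147554-106167564) shares their chromosome. Lcn2 (2:32384633-32388252) and Mmp9 (2:164940780-164955850) are on chromosome 2 and Retnlg (16:48872621-48874496) is on chromosome 16.

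Promoter stretches of 4 members are shown because these genes took different courses through the neutrophil stages, with Ltf and Ngp highest in the least mature bins and Mmp8 and Retnlg highest in the middle. The sequences are from RefSeq (GRCm38.p6) and end just before the earliest annotated start. Capitals mark the letters TTGCNNAA on either strand, a core that C/EBP factors of granulocytes can bind.
Ltf, chr9:111019042-111019270, plus strand: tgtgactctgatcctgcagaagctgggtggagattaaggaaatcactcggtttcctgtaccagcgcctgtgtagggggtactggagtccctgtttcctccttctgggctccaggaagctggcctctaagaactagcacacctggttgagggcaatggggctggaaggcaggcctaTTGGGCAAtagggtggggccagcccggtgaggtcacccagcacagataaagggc
Ngp, chr9:110419558-110419746, plus strand: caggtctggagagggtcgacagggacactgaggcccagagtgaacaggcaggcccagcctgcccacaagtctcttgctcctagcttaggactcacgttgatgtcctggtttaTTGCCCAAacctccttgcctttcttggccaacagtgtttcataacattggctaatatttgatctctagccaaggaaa
Mmp8, chr9:7558179-7558428, plus strand: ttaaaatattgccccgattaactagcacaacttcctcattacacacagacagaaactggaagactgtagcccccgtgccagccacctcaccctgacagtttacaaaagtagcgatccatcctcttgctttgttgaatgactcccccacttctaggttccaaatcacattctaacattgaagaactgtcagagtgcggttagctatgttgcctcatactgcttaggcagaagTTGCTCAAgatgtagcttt
Retnlg, chr16:48872358-48872607, plus strand: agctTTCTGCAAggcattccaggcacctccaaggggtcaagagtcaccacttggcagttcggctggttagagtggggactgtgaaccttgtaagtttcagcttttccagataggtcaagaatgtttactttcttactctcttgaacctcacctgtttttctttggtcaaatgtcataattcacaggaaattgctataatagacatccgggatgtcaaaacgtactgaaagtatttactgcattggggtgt
The first capital letter lies 54 bases before the end of the stretch in Ltf, 77 in Ngp, 19 in Mmp8 and 246 in Retnlg. In windows of 300 bases (250 before and 50 after the start), 6 of the 9 members with an entry held the letters (Lcn2, Ltf, Mmp8, Ngp, Retnlg and S100a9), against 10.8% of 27025 promoters. GAGGAAG, a core of ETS factors, was in 3 of 9 (Lcn2, Mmp8 and S100a8), against 13.5% of all promoters, and TATAAA was in 4 of 9 (Chil3, Mmp8, S100a8 and S100a9), against 14.2%. Both were searched on either strand. Each match is a description of letters and does not show binding.

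Within the marrow, the members fell into 3 courses from granule-forming to late neutrophils. Ltf, Camp, Ngp and Chil3 fell over 60-fold, Lcn2 fell about 4-fold, and Mmp8, Mmp9, S100a8, S100a9 and Retnlg stayed within about 2-fold of their first level. In BM-Ctrl, 6 of 10 members were lower and 1 was higher past 2-fold in late cells, where 20.1% and 18% of the 10515 genes tested passed in those directions. The median log2 ratio was -1.51 over the members and 0.02 over all genes. In BM-shPrmt9, 5 members were lower and 0 higher (16.2% and 17.6% of 11190 genes), with medians of -1.36 and 0.05.

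Ltf, the iron-binding lactoferrin, stood at 5446 CPM in granule-forming, 57.8 CPM in intermediate and 19.7 CPM in late cells of BM-Ctrl, and at 5342, 90.5 and 49.98 CPM in BM-shPrmt9. It was thus 277-fold lower in late than in granule-forming cells of BM-Ctrl (interval 223 to 348) and 107-fold lower in BM-shPrmt9 (93.5 to 123). Camp, the precursor of the antimicrobial peptide CRAMP, went from 19865 to 363 to 90.9 CPM and from 22841 to 768 to 261 CPM. Most of the loss was already present in intermediate cells, where Ltf was 94.3-fold and Camp 54.6-fold below the granule-forming level in BM-Ctrl. Ngp, a cystatin-like granule protein, declined more gradually, with 31809, 2175 and 182 CPM in BM-Ctrl and 36535, 3444 and 542 CPM in BM-shPrmt9. Chil3 dropped from 2506 to 57.8 to 20.6 CPM and from 2723 to 70.8 to 33.8 CPM, so these 4 transcripts shared a course in which only granule-forming cells held high levels. In both marrows, late-cell Ltf and Camp lay within 2-fold of the highest level in T-like, B-like or erythroid-like cells. Late-cell Ngp and Chil3 also lay within 2-fold of that level in BM-shPrmt9, but not in BM-Ctrl. The falls of Ltf and Camp in both marrows, and of Ngp and Chil3 in BM-shPrmt9, thus end near background.

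Lcn2, which starves bacteria of iron, declined without vanishing, with 17333, 8125 and 4442 CPM in BM-Ctrl and 15039, 6597 and 3315 CPM in BM-shPrmt9. Mmp8 peaked in the middle, with 2108, 2834 and 1014 CPM in BM-Ctrl and 1928, 2802 and 1444 CPM in BM-shPrmt9. Mmp9, of the granules made last, was lowest in granule-forming cells, at 1418, 2759 and 2844 CPM in BM-Ctrl (2.00-fold, 1.96 to 2.05) and 1238, 1953 and 1749 CPM in BM-shPrmt9 (1.41-fold, 1.38 to 1.45). Its call in BM-Ctrl lies at the 2-fold limit. Late and intermediate cells of BM-Ctrl were nearly level in Mmp9, and in BM-shPrmt9 it peaked in intermediate cells as Mmp8 did.

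S100a8 and S100a9 stayed high along the stages, and over 5 equal bins of the stage share their highest level was 1.39 to 1.65 times the lowest. S100a8 stood at 141774, 115109 and 93018 CPM in BM-Ctrl and 169248, 143286 and 115938 CPM in BM-shPrmt9, and S100a9 at 168643, 143366 and 108745 CPM and 194162, 173727 and 143266 CPM. Late cells thus kept 0.645 to 0.738 of the granule-forming level. Retnlg rose and fell, with 16434, 35814 and 16891 CPM in BM-Ctrl and 19040, 40893 and 19534 CPM in BM-shPrmt9, a ratio of intermediate to granule-forming cells of 2.18 (2.16 to 2.19) and 2.15 (2.14 to 2.16). Over the same bins Retnlg was lowest in the least mature bin (2197 and 3554 CPM) and highest at shares of 0.4 to 0.6 (39145 and 44867 CPM). Ltf, Camp, Ngp, Lcn2 and Chil3 were highest in that least mature bin in both marrows. Anxa1 supplied 53.4% and 57.3% of the granule-forming marker UMIs in the marrows, and with stages drawn without it Mmp8 in BM-Ctrl turned from lower to higher in late cells (log2 ratio 0.21).

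**Figure D1:**
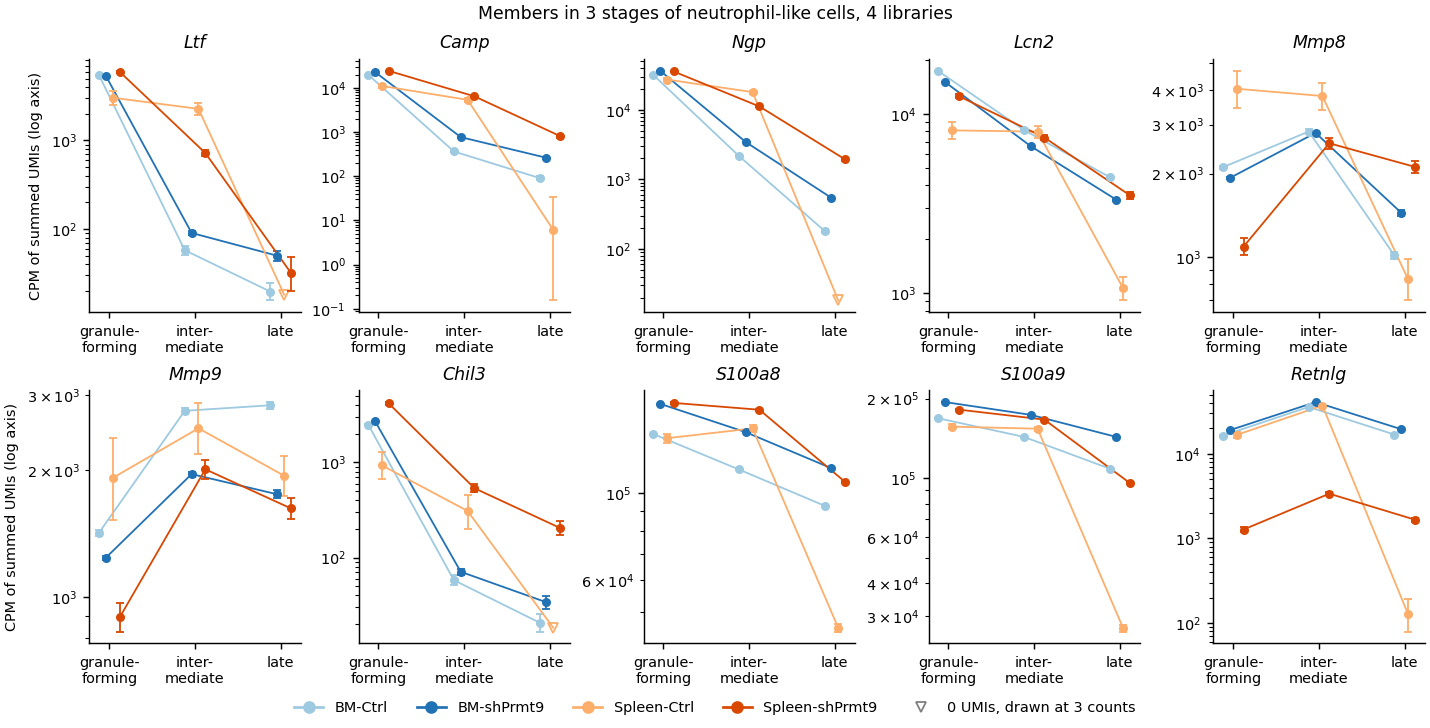
CPM of summed UMIs (vertical, log axis) of each member in granule-forming, intermediate and late neutrophil-like cells, with a line per library and 95% counting intervals. Open triangles are classes with 0 UMIs, drawn at the level of 3 counts. Ltf, Camp, Ngp and Chil3 fall from left to right in both marrows, Mmp8 and Retnlg peak in intermediate cells, and Retnlg of Spleen-shPrmt9 lies below the other libraries in granule-forming and intermediate cells.

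Between the marrows, none of the members changed past 2-fold in all neutrophil-like cells. 0 of 10 were higher and 0 of 10 lower in BM-shPrmt9, where 4.03% and 8.39% of 12359 genes passed in those directions. Ratios of BM-shPrmt9 to BM-Ctrl ran from 0.722 for Mmp9 (0.713 to 0.732) to 1.34 for Camp and Ngp, and the median log2 ratio was 0.26 against -0.31 over all genes. Calprotectin transcripts took 27.4% of all UMIs of these cells in BM-Ctrl and 33.9% in BM-shPrmt9, and the 10 members together took 34.4% and 42.3%. The neutrophil-like cells of BM-shPrmt9 were deeper (median 6752 UMIs against 4013), and late cells made up 18.9% of them against 37.0%.

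The levels behind these ratios were close for most members. Camp was at 10752 CPM in BM-Ctrl and 14392 CPM in BM-shPrmt9, Ngp at 17622 and 23634 CPM, and Retnlg at 21353 and 25022 CPM. Lcn2 was at 12265 and 11471 CPM and Mmp8 at 2053 and 2113 CPM, nearly level between the arms. Among granule-forming cells the ratios narrowed to between 0.868 for Lcn2 and 1.19 for S100a8, with 0 of 10 higher (4.38% of 11388 genes) and 0 of 10 lower (7.98%), and medians of 0.16 and -0.29. In these cells the libraries occupied different clusters, since 62.6% of the BM-Ctrl cells lay in cluster 2 and 84.1% of the BM-shPrmt9 cells in cluster 3.

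In late cells the same marrows did differ. Ltf, Camp and Ngp were higher in BM-shPrmt9, at 49.98 against 19.7 CPM for Ltf (2.54-fold, 1.96 to 3.32), 261 against 90.9 CPM for Camp (2.87-fold, 2.56 to 3.24) and 542 against 182 CPM for Ngp (2.98-fold, 2.75 to 3.24). These were 3 of 10 members, with 5.46% of 9374 genes higher, and 0 of 10 were lower, with 8.76% of genes lower. Medians were 0.45 over the members and -0.27 over all genes. Camp was also 2.11-fold higher in intermediate cells (2.01 to 2.22). Mmp9 was lower in late cells of BM-shPrmt9, at 1749 against 2844 CPM, a ratio of 0.615 that did not pass 2-fold. The background of free RNA moved with the rise: in T-like, B-like and erythroid-like cells, which are not known to make these transcripts, the members summed to 1475 to 1678 CPM in BM-Ctrl and 3992 to 5692 CPM in BM-shPrmt9. In those 3 classes Camp was 3.13- to 4.04-fold and Ngp 3.12- to 3.67-fold higher in BM-shPrmt9, as large as in late neutrophils. For each gene the highest of these classes stood at 12.8 (BM-Ctrl) and 38.4 CPM (BM-shPrmt9) for Ltf, 54.6 and 188 CPM for Camp, and 76.3 and 280 CPM for Ngp. Late-cell Ltf and Camp in both marrows, and Ngp in BM-shPrmt9, were thus within 2-fold of free RNA in CPM. The part of free RNA in the late-cell difference was not tested. Late cells also lay in different clusters, 91.7% in cluster 1 in BM-Ctrl and 94.98% in cluster 4 in BM-shPrmt9.

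**Figure D2:**
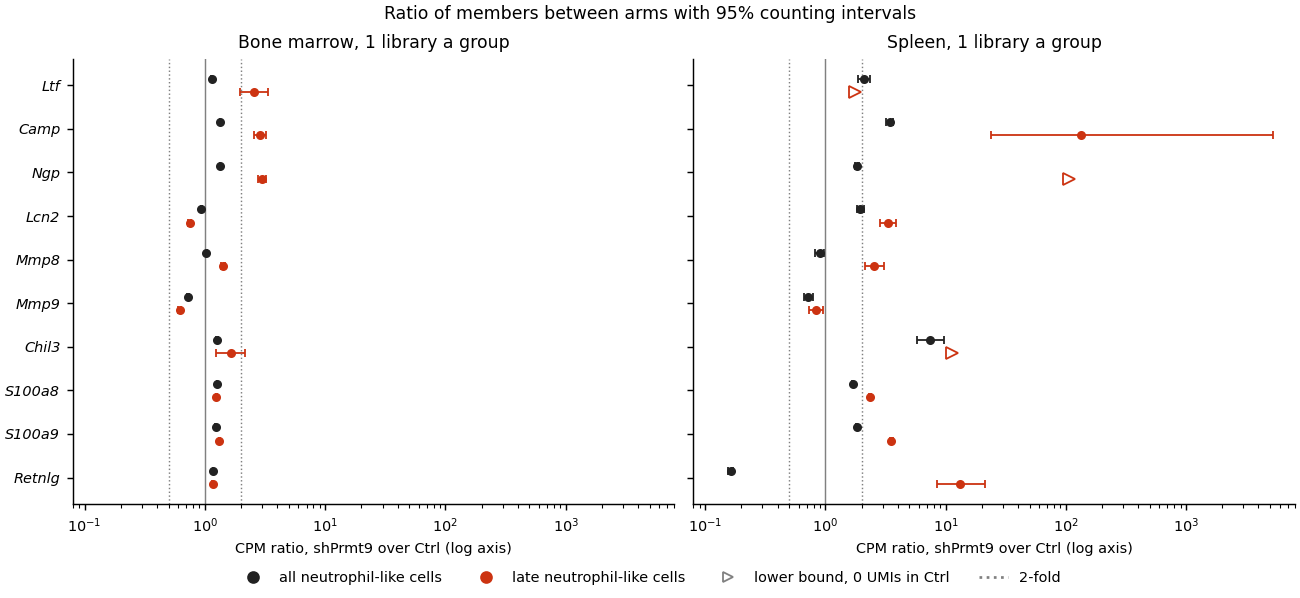
Ratio of CPM in shPrmt9 to Ctrl (horizontal, log axis) for each member in marrow and spleen, for all neutrophil-like cells and for late cells alone, with 95% counting intervals. Solid and dotted lines mark ratio 1 and 2-fold, and open arrows are lower bounds where Ctrl held 0 UMIs. Marrow ratios over all neutrophil-like cells lie between 0.722 and 1.34, while in spleen Retnlg lies at 0.163 over all cells and at 13.1 in late cells.

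In spleen, Camp, Chil3 and Ltf were higher and Retnlg was lower in shPrmt9. Ltf was at 1081 CPM in the Ctrl and 2275 CPM in the shPrmt9 spleen (2.10-fold, 1.88 to 2.37), Camp at 3119 and 10666 CPM (3.42-fold, 3.20 to 3.66), and Chil3 at 223 and 1664 CPM (7.48-fold, 5.84 to 9.73). Ngp and Lcn2 were just under 2-fold, at 9016 and 16445 CPM and at 4023 and 7875 CPM. These were 3 of 10 members, with 8.08% of 7292 genes higher. S100a8 stood at 87349 and 147449 CPM and S100a9 at 81591 and 148864 CPM. Mmp8 (2135 and 1922 CPM) and Mmp9 (2093 and 1504 CPM) differed little. The median log2 ratio was 0.87 over the members and -0.31 over all genes. Only 65 cells gave the Spleen-Ctrl values, 80% of them late, against 48.2% of the 191 cells of Spleen-shPrmt9, and a single cell held 45.7% of the Ltf UMIs and 29.99% of the Camp UMIs of Spleen-Ctrl. Without the cell holding the most UMIs of a gene in each library 5 members were higher, and with TMM scaling 7 were.

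Retnlg set the spleens apart from each other in the other direction. It was at 12980 CPM in the Ctrl spleen and 2115 CPM after the knockdown, 6.14-fold lower (5.88 to 6.41), and was the 1 of 10 members that was lower, with 19.5% of genes lower. The difference was present within each of the earlier stages. Granule-forming cells held 16739 CPM in Ctrl and 1276 CPM in shPrmt9 (13.1-fold lower, 11.9 to 14.5), and intermediate cells 37208 and 3383 CPM (ratio 0.0909, 0.0862 to 0.0959). All 4 granule-forming cells of Spleen-Ctrl lay in cluster 23, whereas 28.6% of those of Spleen-shPrmt9 lay in cluster 27, where MA9-like cells were low in Retnlg (12.3 CPM). With classes drawn from clusters, granule-forming cells held 12619 and 1545 CPM and intermediate cells 37227 and 3130 CPM. In Spleen-Ctrl the earlier stages were only 13 cells, but all 13 held Retnlg, with 3712 UMIs in all. In Spleen-shPrmt9, 74 of 99 such cells held 3366 UMIs. The marrow libraries stood with Spleen-Ctrl, at 16434 to 40893 CPM in the same stages. In Spleen-shPrmt9 Retnlg was at 2138 CPM in neutrophil-like cells with a Y-linked UMI and 2070 CPM in those without one. By stage these levels were 1959 and 573 CPM in granule-forming, 2637 and 5685 CPM in intermediate and 1721 and 1532 CPM in late cells. In Spleen-Ctrl they were 17425 CPM in 36 neutrophil-like cells with a Y-linked UMI and 7334 CPM in 29 without one.

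Late cells of the spleens differed more widely, with 8 of 10 members higher in shPrmt9 (11.6% of 5413 genes) and 0 lower (21.3%). Spleen-Ctrl late cells, 52 in number, held 0 UMIs of Ltf, Ngp and Chil3 and 1 of Camp, where the 92 late cells of Spleen-shPrmt9 held 22, 1336, 141 and 558. Ngp was thus at least 106-fold, Chil3 at least 11.2-fold and Ltf at least 1.75-fold higher, taking 3 counts per library as the limit, and Camp was 133-fold higher with an interval of 23.8 to 5275. Lcn2 rose from 1062 to 3504 CPM (3.30-fold), Mmp8 from 831 to 2114 CPM (2.54-fold), S100a8 from 45394 to 106948 CPM (2.36-fold) and S100a9 from 26999 to 95712 CPM (3.55-fold). Retnlg in these late cells went from 127 to 1667 CPM (13.1-fold, 8.52 to 21.2), the opposite of its course in the earlier stages, and its 21 UMIs in Spleen-Ctrl came from 3 cells. Mmp9, at 1935 and 1619 CPM, did not pass 2-fold. The medians were 1.77 and -0.31. Free RNA also differed, with 0.426 to 1.99 member UMIs per gauge cell in Spleen-Ctrl and 4.73 to 9.01 in Spleen-shPrmt9, and its part was not tested.

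Between tissues of the same arm, which differ here in library and in sex-linked transcripts, the spleen held lower levels of specific granule transcripts in Ctrl. Ltf was 2.71-fold, Camp 3.45-fold, Lcn2 3.05-fold and Chil3 6.12-fold lower in Spleen-Ctrl than in BM-Ctrl neutrophil-like cells, 4 of 10 members with 7.26% of 10956 genes lower. None of the 10 was higher (18.6% of genes). In the shPrmt9 arm only Retnlg was lower in spleen, 11.8-fold (11.5 to 12.2), with 9.14% of 11806 genes lower and 0 of 10 members higher (13.3%). Median log2 ratios were -0.92 and -0.37 over the members and 0.00 and 0.02 over all genes. Stage mix moved with tissue in both arms. Late cells were 37.0% of neutrophil-like cells in marrow and 80% in spleen in Ctrl, and 18.9% and 48.2% in shPrmt9.

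Cells with no myeloid identity gauged the free RNA that reaches every droplet. T-like, B-like and erythroid-like cells of BM-Ctrl held 8.32 to 10.8 member UMIs per cell and those of BM-shPrmt9 35.4 to 41.3. In both marrows at least 99.6% of these cells held at least 1 member UMI, so a UMI alone did not mark a cell as making the transcript. In Spleen-Ctrl, 1 B-like cell held 8718 of the 11442 member UMIs of its class, and the median cell of each gauge class held 0. A member was called above free RNA in another class where it stood over 2-fold above the highest of the 3 gauge classes both in CPM and in UMIs per cell.

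MA9-like cells, named by Hoxa9, Hoxa10, Hoxa7, Hoxa5, Meis1 and Pbx3, carried part of this set above free RNA in every library. In BM-Ctrl 5 of 10 members were above it, where 15.4% of 13970 genes were: Ngp by 8.58-fold in CPM, S100a8 by 5.09-fold, Lcn2 by 4.41-fold, Camp by 4.21-fold and S100a9 by 3.52-fold. In BM-shPrmt9 7 of 10 were above (18% of 14470 genes), with Chil3 (5.91-fold) and Mmp8 (2.06-fold) added to those 5. Ltf, Mmp9 and Retnlg stood at 1.12- to 1.99-fold of the gauge in CPM in both marrows and did not pass, although in UMIs per cell they stood at 10.7- to 17.3-fold. The 2 scales differ this far because MA9-like cells were deep, with a median of 26380 to 58970.5 UMIs. In Spleen-Ctrl, 8 of the 8 members tested were above (16.4% of 8122 genes) in only 39 cells, and in Spleen-shPrmt9 10 of 10 were (16.8% of 9722 genes). There Camp stood 409-fold, Ngp 477-fold and Chil3 313-fold over the gauge in CPM, but Retnlg only 7.68-fold and Mmp8 4.20-fold, from 60 and 25 UMIs. With classes drawn from clusters, 0 members passed in BM-shPrmt9, where 2 gauge clusters then held 39991 and 86193 CPM of the members, of which 26 of 339 and 12 of 34 cells were mixed, unresolved or neutrophil-like by their own markers.

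The MA9-like class was not compared between libraries as a whole, because different clusters held it and 2 of them (27 and 28) had more markers of another class than MA9 markers among their leading genes. By cluster, 1140 cells of BM-Ctrl lay in cluster 16, where the members summed to 7612 CPM, and 444 in cluster 13, with 3685 CPM. Of BM-shPrmt9, 1181 cells lay in cluster 28, with 13901 CPM, and 669 in cluster 27, with 95389 CPM. In Spleen-shPrmt9, 171 cells lay in cluster 27, with 171397 CPM, and in Spleen-Ctrl 22 cells lay in cluster 16, with 62809 CPM. Of these MA9-like groups, those in cluster 27, which is led by stefin genes (Stfa3, Stfa2 and Cstdc5), Olfm4 and Fcnb, had the highest summed CPM. In cluster 27 the granule-forming panel summed to 4221 CPM (BM-shPrmt9) and 4415 CPM (Spleen-shPrmt9), and the MA9 panel to 641 and 417 CPM. The 2 panels stood at 921 and 629 CPM in cluster 28 of BM-shPrmt9 and at 1328 and 409 CPM in cluster 16 of BM-Ctrl. Whether the cells of cluster 27 were leukemia or host cells was not tested.

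Within cluster 27, Camp was at 4535 CPM in BM-shPrmt9 and 9097 CPM in Spleen-shPrmt9, Ngp at 10576 and 20540 CPM, and S100a8 at 40761 and 69902 CPM. Chil3 was at 512 and 1250 CPM. Ltf was at only 125 and 85.9 CPM and Mmp8 at 54.9 and 5.38 CPM. Neutrophil-like cells of the same libraries held 3340 and 2275 CPM of Ltf and 2113 and 1922 CPM of Mmp8. Retnlg was at 786 and 12.3 CPM in cluster 27. These MA9-like cells thus held Camp, Ngp and calprotectin without the Ltf, Mmp8 or Retnlg levels of all neutrophil-like cells together. In BM-shPrmt9 their Ltf still lay above that of intermediate and late neutrophil-like cells given above. In cluster 28 of BM-shPrmt9 the levels were lower, with Camp at 430 CPM, Ngp at 828 CPM and S100a8 at 6802 CPM. In cluster 16 of BM-Ctrl they were 247, 763 and 3590 CPM. The 17 cells of BM-Ctrl in cluster 27 differed from the rest, with Ltf at 2433 CPM and S100a8 at 67370 CPM. Their granule-forming panel summed to 10624 CPM and their MA9 panel to 397 CPM. Against granule-forming neutrophils of the same marrow, MA9-like cells as a class were 44.0-fold (S100a8) to 314-fold (Chil3) lower in BM-Ctrl and 11.6-fold (S100a8) to 70.0-fold (Ltf) lower in BM-shPrmt9.

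**Figure D3:**
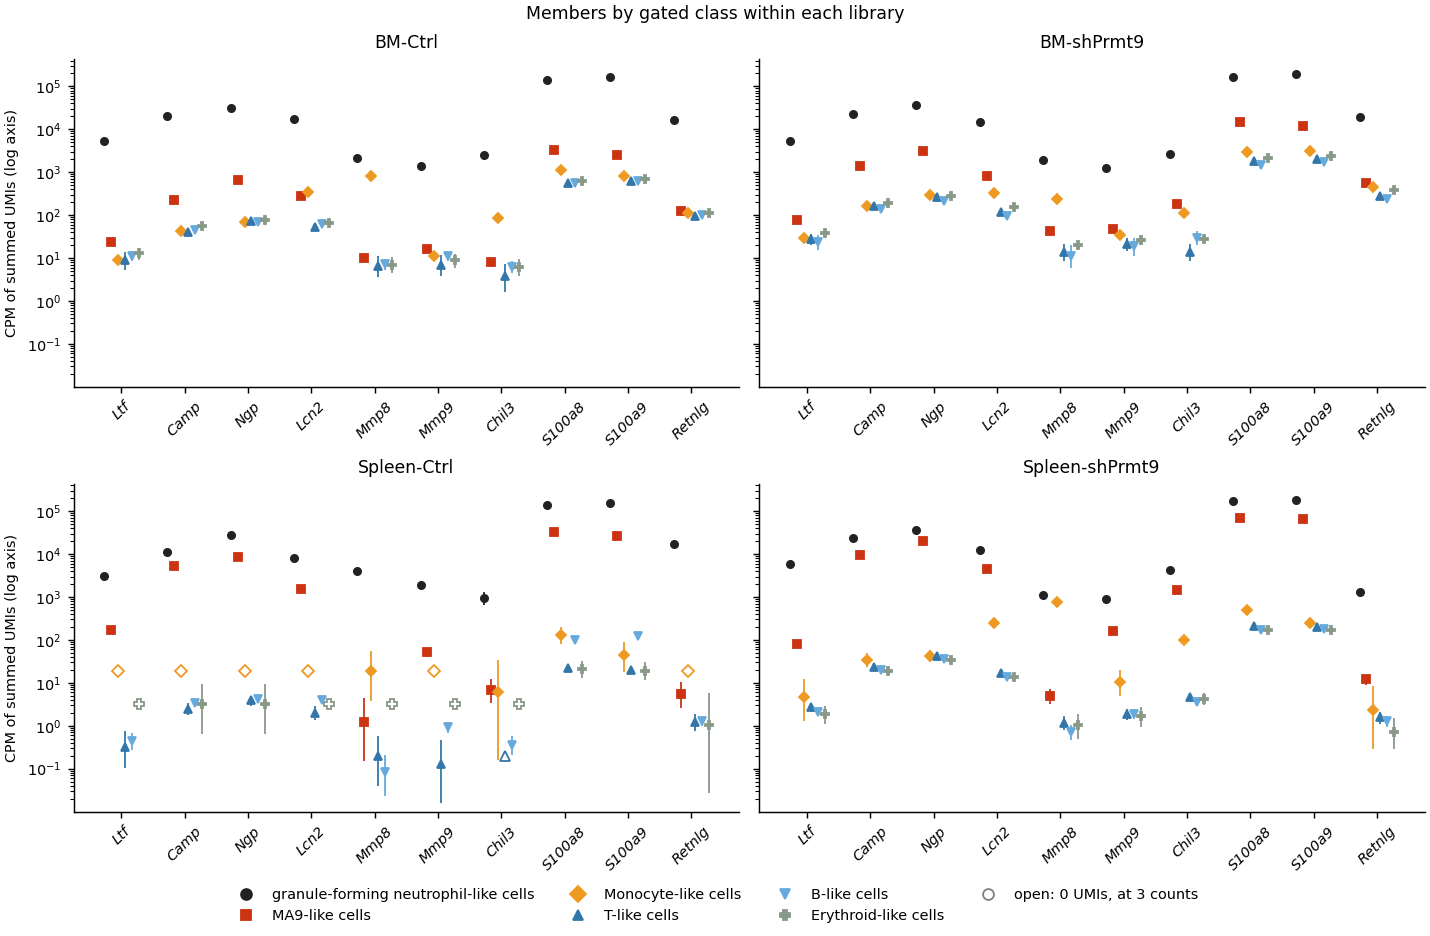
CPM of summed UMIs (vertical, log axis) of each member in granule-forming neutrophil-like, MA9-like, monocyte-like, T-like, B-like and erythroid-like cells, with a panel per library and 95% counting intervals. Open symbols are classes with 0 UMIs, drawn at 3 counts. The 3 gauge classes lie together at the bottom in the marrows and in Spleen-shPrmt9, MA9-like cells lie above them for Camp, Ngp, Lcn2, S100a8 and S100a9, and Mmp8 is the member in which monocyte-like cells lie above MA9-like cells by the widest margin.

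Monocyte-like cells held Mmp8, Lcn2 and Chil3 above free RNA and none of the other members tested. The count was 3 of 10 in BM-Ctrl (14.3% of 10596 genes), 3 of 10 in BM-shPrmt9 (15.4% of 9642) and 3 of the 7 tested in Spleen-shPrmt9 (17.2% of 6887). Mmp8 was at 833 CPM in the 442 monocyte-like cells of BM-Ctrl, 236 CPM in the 224 of BM-shPrmt9 and 780 CPM in the 69 of Spleen-shPrmt9. These levels were 117-, 11.5- and 656-fold over the gauge. Mmp8 was 3.52-fold lower in BM-shPrmt9 than in BM-Ctrl monocyte-like cells (3.26 to 3.81), while its gauge moved the other way, from 7.13 to 20.5 CPM. After thinning to 1000 UMIs per cell, Mmp8 was detected in 46.3% of the BM-Ctrl and 10.3% of the BM-shPrmt9 monocyte-like cells (unthinned 80.3% and 45.5%). T-like cells of the same marrows, at median depths of 6657 and 7464.5 UMIs against 11122.5 and 12770.5 in monocyte-like cells, had Mmp8 UMIs in 0.338% and 0.541% of thinned cells (unthinned 4.35% and 10.2%).

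Lcn2 in monocyte-like cells was at 349, 332 and 245 CPM and Chil3 at 87.6, 112 and 97.8 CPM in those 3 libraries. In Spleen-shPrmt9 1 cell held 91.2% of the Lcn2 and 57.3% of the Chil3 UMIs, and without the cell holding the most UMIs of a gene 2 members stayed above. S100a8 was at 1139, 2946 and 506 CPM, 1.80-, 1.38- and 2.41-fold the gauge in CPM, and did not pass on both scales. The 22 cells of Spleen-Ctrl were too few for the comparison, and held 3 Mmp8 UMIs.

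Myeloid progenitor-like cells, which make primary granules, held all 10 members above free RNA in both marrows, where 12.9% of 10799 genes (BM-Ctrl) and 13.2% of 10973 genes (BM-shPrmt9) were above it. In the 186 cells of BM-Ctrl, Chil3 stood 60.8-fold over the gauge and Ngp 22.1-fold, with Mmp9 (2.36-fold) and Retnlg (2.78-fold) lowest. In the 298 cells of BM-shPrmt9, Chil3 was 20.3-fold and Ngp 17.8-fold over. The progenitor panel also summed to 8466 CPM in MA9-like cells of cluster 16 (BM-Ctrl) and 12635 CPM of cluster 28 (BM-shPrmt9). Whether leukemia cells with too few MA9 markers were among the progenitor-like cells was not tested. Basophil-like cells had Lcn2 alone above free RNA in BM-Ctrl (2.13-fold, 1 of 6 tested, with 14.1% of 6265 genes above). In BM-shPrmt9 9 of 10 members were above, between 2.28- and 5.01-fold (12.6% of 6581 genes), in 74 cells. By the halved sum of absolute differences in member shares, these cells lay 3.40 percentage points from neutrophil-like and 12.1 from MA9-like cells. Whether neutrophil RNA in these droplets gave the calls was not tested. Plasmacytoid dendritic-like cells of BM-Ctrl had Mmp8 (3.57-fold) and Mmp9 (3.08-fold) above, 2 of 9 tested, with 13.3% of 7895 genes above. These 2 calls rest on 24 and 32 UMIs in 91 cells. Natural killer-like cells had 0 of 1 tested member above free RNA in Spleen-Ctrl (9.18% of 6855 genes) and 0 of 5 in Spleen-shPrmt9 (5.75% of 8119 genes).

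Neutrophil-like cells held most of each member's UMIs in marrow and fewer in spleen. In the marrows they held from 63.4% (Ngp in BM-shPrmt9) to 91.4% (Retnlg in BM-Ctrl) of a member's library total. In the spleens MA9-like cells, only 39 and 182 in number, held 38.5% to 57.1% of the Camp, Ngp, Lcn2, S100a8 and S100a9 UMIs. Retnlg and Mmp8 stayed with the neutrophils there, at 80.6% and 91.3% and at 86.7% and 75.8%.

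The make-up of the free RNA differed between libraries. In BM-Ctrl Retnlg was 6.20% of the members' UMIs in neutrophil-like cells, 6.30% in T-like, 6.80% in B-like and 6.53% in erythroid-like cells, but 1.73% in MA9-like cells. In Spleen-shPrmt9, where neutrophils were low in Retnlg, it was 0.621% in neutrophil-like cells and 0.310%, 0.298% and 0.174% in the gauge classes. Ngp of the same library was 4.83% in neutrophil-like and 11.9% in MA9-like cells, and lay between them at 8.22% to 8.57% in the gauge classes. Summed over all members as the halved sum of absolute differences in share, the gauge classes of the marrows lay 1.06 to 2.78 percentage points from neutrophil-like cells and at least 11.6 points from MA9-like cells. In Spleen-shPrmt9 they lay 6.00 to 6.83 points from neutrophil-like and 4.29 to 4.99 points from MA9-like cells. In Spleen-Ctrl 1 cell held 8718 of the 11442 member UMIs of B-like cells, and T-like and erythroid-like cells held 797 and 45. Retnlg there was 6.37% in neutrophil-like cells but 2.38% in T-like, 0.533% in B-like and 2.22% (1 UMI) in erythroid-like cells. The 3 gauge classes lay 8.35 to 12.1 points from neutrophil-like and 7.62 to 18.0 points from MA9-like cells. T-like cells lay 3.25 points from all cells of that library. Gauge cells in marrow thus resembled the neutrophils, and in Spleen-shPrmt9 they stood between both classes. In Spleen-Ctrl no likeness was read, since 1 cell gave most B-like UMIs and erythroid-like cells held few.

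**Figure D4:**
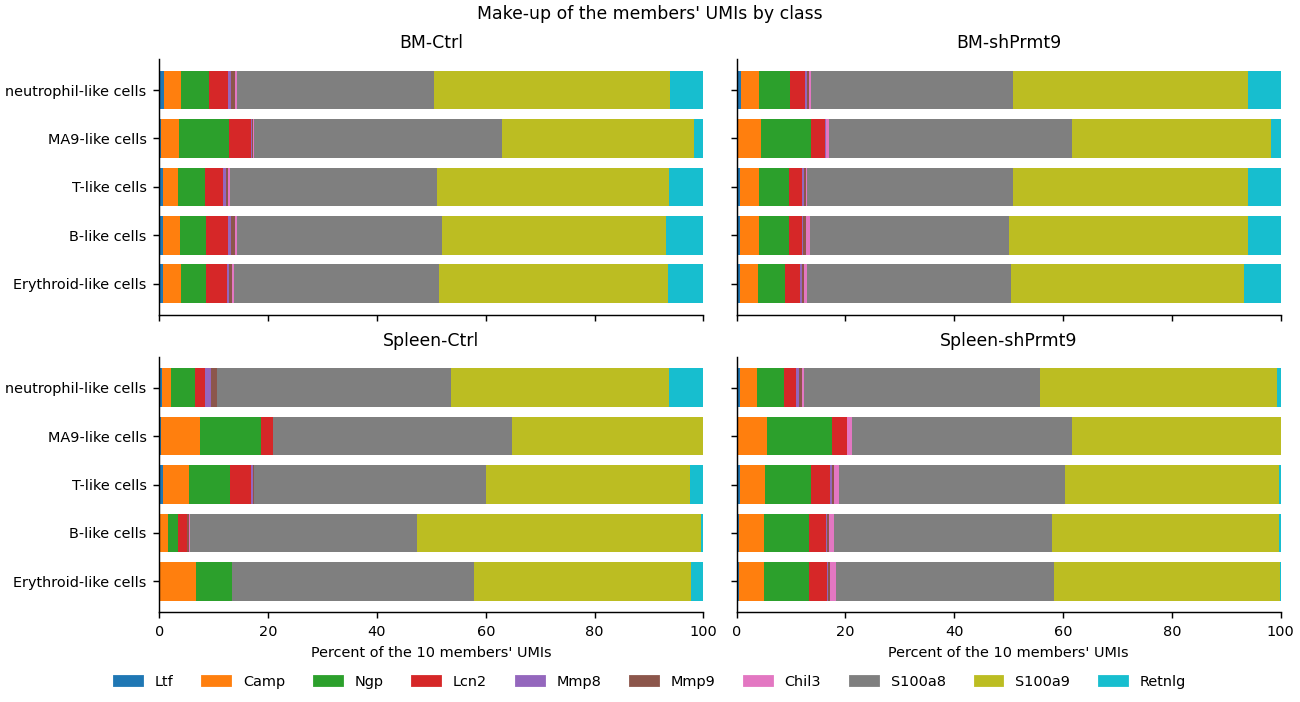
Share of each member in the summed UMIs of the 10 members (horizontal, percent) for neutrophil-like, MA9-like, T-like, B-like and erythroid-like cells, with a panel per library. In both marrows the gauge classes carry the Retnlg share of the neutrophil-like cells, 5.97% to 6.80%, and in Spleen-shPrmt9 every class holds under 1% Retnlg.

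The UMI ratio of the 2 calprotectin genes varied with both class and library. S100a8 UMIs per S100a9 UMI were 0.803 to 0.872 in each stage of marrow neutrophils and 0.832 to 0.912 in the gauge classes of marrow. It was above 1 in MA9-like cells of all 4 libraries, at 1.30 (1.29 to 1.30) in BM-Ctrl, 1.22 in BM-shPrmt9, 1.25 in Spleen-Ctrl and 1.05 in Spleen-shPrmt9. Monocyte-like cells had 1.43 in BM-Ctrl, 0.956 in BM-shPrmt9 and 2.02 in Spleen-shPrmt9. Late neutrophils of the spleens, at 1.68 in Spleen-Ctrl and 1.12 in Spleen-shPrmt9, lay above those of both marrows.

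The share of neutrophil-like cells with a UMI varied by library for the stage-bound genes. Ltf was detected in 30.1% (Ctrl) and 48.9% (shPrmt9) of these cells in marrow and in 12.3% and 38.2% of them in spleen. Thinned to 1000 UMIs per cell, which left out 35 and 15 shallower cells in the marrows, the shares were 23.0% (21.6 to 24.3), 33.7% (32.4 to 35.1), 9.23% (3.46 to 19.0) and 25.7% (19.6 to 32.5). In T-like cells of the same libraries the thinned shares were 2.03%, 3.24%, 0.0534% and 0.247%, and the unthinned shares 5.69%, 20.4%, 0.267% and 2.499%. Retnlg was detected in 98.2% of BM-Ctrl and 99.9% of BM-shPrmt9 neutrophil-like cells, and in 24.6% of Spleen-Ctrl and 60.7% of Spleen-shPrmt9 (thinned 92.3%, 93.1%, 23.1% and 35.1%). In the spleens the order of these Retnlg shares was opposite to that of its CPM, and no order was read from them.

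Other genes of neutrophils were counted from lists. Between the marrows, 0 of 20 other specific and gelatinase granule or granule membrane genes (such as Cybb, Hp and Cd177) passed 2-fold in neutrophil-like cells, with a median log2 ratio of -0.05. Over all 12359 genes, 4.03% were higher and 8.39% lower in BM-shPrmt9. Of 11 primary granule genes 2 were lower, the myeloperoxidase gene Mpo (4.39 to 1.74 CPM) and the protease inhibitor Serpinb1a (529 to 236 CPM). Of 18 late neutrophil genes 1 was lower, the niacin receptor Hcar2 (184 to 76.3 CPM). The list medians were -0.18 and -0.24, against -0.31 over all genes. Of 7 stefins and cystatins of chromosome 16, cysteine protease inhibitors, 2 were higher, Cstdc5 (3.29-fold) and Stfa2 (2.55-fold). Within stages more of them passed. In granule-forming cells 6 of 6 were higher (median 1.84, with 4.38% of all genes higher), and in late cells 5 of 6 (1.18, with 5.46%). All 8 interferon response genes were higher, with a median of 2.73, led by Ifit3 (19.3 to 296 CPM, 15.3-fold), Ifit1 (8.72-fold) and the chemokine Cxcl10 (8.39-fold). None of 11 granulocyte transcription factors, 7 granule packaging genes or 6 S100 relatives passed, with medians of -0.21, -0.37 and 0.09.

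Between the spleens, 8.08% of 7292 genes were higher and 19.5% lower in shPrmt9. Of 18 late neutrophil genes 11 were lower (median -1.10), led by the cytokine Il1b (24.2-fold lower), Ifitm1 (8.32-fold) and the chemokine receptor Cxcr2 (3.88-fold). Of 17 other specific and gelatinase granule genes, 2 were higher, the granule glycoprotein Olfm4 (136 to 738 CPM, 5.44-fold) and the adhesion molecule Ceacam1 (2.22-fold), with a median of 0.24. Of 8 interferon genes 5 were higher, led by Irf7 (4.44-fold), and Cxcl10 was 8.89-fold lower, with a median of 1.53. Of 6 stefins 3 were higher, led by Cstdc5 (31.1-fold, 10.6 to 151, with 3 UMIs in Ctrl), and 3 lower, led by Stfa1 (5.36-fold). Of 5 primary granule genes Serpinb1a was higher (2.13-fold) and the proteoglycan gene Srgn lower (3.60-fold). Of 9 transcription factors 1 was higher and 2 were lower, near the shares over all genes, led by Runx1 (4.34-fold lower). Of 5 S100 relatives 1 was higher, and 0 of 7 packaging genes were. The medians of these last 4 lists were 0.02, 0.17, -0.04 and -0.52.

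Along the stages of BM-Ctrl, 18% of 10515 genes were higher and 20.1% lower in late cells. Of 18 late neutrophil genes 15 were higher (median 2.06), led by Il1b (5.79 to 1417 CPM). Of 19 other specific and gelatinase granule genes, 10 were lower (median -1.18), led by the ficolin Fcnb (242-fold, 66.9 to 2003, with 2 UMIs in late cells), and 0 were higher. Of the granulocyte transcription factors, Cebpe, which drives specific granule genes, fell from 390 to 32.1 CPM, and Cebpb rose from 232 to 1510 CPM, among 4 higher and 3 lower of 11 (median 0.54). All 6 stefins tested were higher (median 3.70), led by Stfa2 (32.2-fold), as were 6 of 8 interferon genes (2.27) and 2 of 7 packaging genes (0.17), the latter being the fusion protein gene Snap23 (4.85-fold) and Lyst (2.75-fold). Of 11 primary granule genes 1 was higher, Srgn, and 3 were lower, led by Serpinb1a (23.1-fold), with a median of -0.17. No S100 relative of 6 passed (0.59). Late neutrophil and granule-forming genes include markers used to draw the stages, so their direction is not a result. Cebpe and Serpinb1a are also granule-forming markers, so their falls are not results either.

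The genes whose levels most resembled the mean of the members, over 34 sums of class and library, were Ifitm6 (Pearson r of log2 CPM 0.950), the neutrophil surface proteins Cd177 (0.942) and Ly6g (0.941), Pram1 (0.937), Mapk13 (0.929), Wfdc21 (0.927), Ceacam10 (0.925) and Mcemp1 (0.912). Among the members, S100a8 and S100a9 were most alike (0.997), followed by Camp and Ngp (0.981), and Ngp and Mmp8 were least alike (0.577). These correlations describe class sums that share libraries, depth and free RNA. Cd177 and Ly6g are also markers used to draw the neutrophil classes, so their likeness is not a result.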

How the data were processed

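Single-cell RNA sequencing (10x Genomics 3′ kit, v2) measured transcripts in 4 mouse libraries, 1 per group. The deposited counts are raw UMIs per gene and cell, made by the authors with Cell Ranger (6.0.2 per the file headers, 6.1.1 per the submitters' processing notes) on mm10. The annotation behind them is not given in the sources used here, and gene positions come from GENCODE. Barcodes with under 200 genes or over 20% mitochondrial UMIs were left out, as were the top Scrublet scores, at 0.8% per 1000 cells. Scrublet's own threshold marked 128, 0, 1 and 190 barcodes, against 744, 999, 640 and 520 removed here. No columns of other series were present (0).

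Cells were named from 16 marker panels: at least 3 markers (4 for progenitors) and 30% of a panel, and mixed where another lineage reached 50% of the highest share. A cell that passed the MA9 panel was named MA9-like in place of any other myeloid class. Neutrophil-like cells also stood clear of the monocyte panel, and other cells with neutrophil markers were left unresolved. Each of the 3 gauge classes was gated the same way. UMIs were summed per class and divided by the class total (CPM). Ratios carry exact conditional intervals, levels exact Poisson intervals and shares Clopper-Pearson intervals, all at 95%. A change was called past 2-fold among genes with at least 10 UMIs over both groups, which all 10 members had in the comparisons between neutrophil-like classes. A group at 0 was set to 3 counts per library for a lower bound. With 1 library per group no test was made.

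Clusters (Leiden, 34) were built in scanpy 1.11.5 from 2988 variable genes without the members. TMM factors from edgeR 4.0.16 served as an alternative scaling. Other tools were python 3.11.15, numpy 2.4.6, pandas 2.3.3, scipy 1.17.1 and scikit-learn 1.9.0. The summing and calling steps were tested on simulated data. All members were named, and of each gene list up to 3 genes per direction with the largest change past 2-fold and at least 50 UMIs, plus the 8 genes most like the members' mean. The members and lists were chosen with earlier results of these data known. The closing section gives the alternatives, 1 of which, the stages without Anxa1, was chosen after seeing the data.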

Additional observations from a re-analysis of the deposited data

Results flagged for a closer look

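For 3 members, marrow and spleen moved in opposite directions between the arms. These differences between tissues were not tested, since each ratio compares 1 library with 1 library. In all neutrophil-like cells, Lcn2 had a ratio of shPrmt9 to Ctrl of 0.935 in marrow and 1.96 in spleen. Mmp8 stood at 1.03 in marrow and 0.900 in spleen, both close to 1. Retnlg stood at 1.17 in marrow and 0.163 in spleen, the widest gap of the 3. In late cells alone, Lcn2 stood at 0.746 in marrow and 3.30 in spleen. With TMM factors Lcn2 was above 1 in both tissues over all neutrophil-like cells (log2 ratios 0.22 and 1.33), as was Mmp8 (0.36 and 0.21), while Retnlg kept opposite signs (0.54 and -2.26).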

How the results depend on the processing

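Of the counts that answer a comparison, 128 values under alternatives stayed within 1.5 times the reported count and 21 did not. The cause was not tested unless stated. In the spleens, the members higher in shPrmt9 rose from 3 to 5 with doublets kept and without the highest cell, 7 with the members left out of the total or TMM factors, and 6 as a mean of cells. The 1 member higher in late than in granule-forming cells of BM-Ctrl became 0 with doublets kept, classes from clusters, members left out, TMM factors or a mean of cells, and 2 with stages drawn without Anxa1, which also raised the count in BM-shPrmt9 from 0 to 2. Without Anxa1 the log2 ratio of Mmp8 in BM-Ctrl turned from -1.06 to 0.21. Members lower in Spleen-Ctrl than in BM-Ctrl rose from 4 to 7 with TMM factors or a mean of cells. Members above free RNA in MA9-like cells went from 5 to 9 with doublets kept and 10 by UMIs per cell alone in BM-Ctrl, and from 7 to 0 with clusters in BM-shPrmt9. In monocyte-like cells they went from 3 to 7 by UMIs per cell alone in both marrows, and with clusters to 0 in BM-shPrmt9 and 6 in Spleen-shPrmt9. By UMIs per cell alone a deep class passes more easily by construction. Of the log2 ratios of single members, 208 moved by less than their counting interval, 291 by more, and 1 changed sign past the 2-fold call.

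TMM factors raised the median log2 ratio of all genes by 0.31 in the arm comparison of each tissue, and leaving the members out of the total raised it by 0.18 in marrow and 0.27 in spleen and lowered it by 0.38 and 0.40 between stages. Stricter gates and a minimum of 50 UMIs left every count within 1.5 times. No paired analysis was possible because each group is 1 library, so no comparison holds more than 1 pair. The 65 neutrophil-like cells of Spleen-Ctrl and the free RNA of the marrows limit the precision.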
